A study of Homo sapiens with 6 samples.

Results

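The genes followed here are 10 targets of hypoxia-inducible factors (HIF) that are not enzymes of glycolysis, in HCT116, an established human line of colorectal carcinoma cells. The members were taken by symbol from a deposited table of expression values, in which all 10 were found among 36651 genes: ANKRD37, NDRG1, BNIP3, BNIP3L, VEGFA, CA9, ADM, EGLN3, P4HA1 and P4HA2. RNA sequencing of polyA RNA had been done on 3 libraries labelled siMTA1 and 3 control libraries of the same line. MTA1 belongs to the chromatin complex NuRD, which moves nucleosomes and deacetylates histones, and the comparison asks which transcripts differ where MTA1 is lowered. The treated samples read siMTA in their descriptions and CrMTA1 in their titles, and the controls read Ctrl and WT, so the labels leave unclear if RNA interference or genome editing was used, and what the controls received was not given in the sources used here. No oxygen level, culture density or agent is named for either group, and nothing says that replicates were separate cultures, so the p-values speak only of the spread among these libraries, which may be technical.

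Cells sense oxygen through enzymes that hydroxylate prolines of the HIF alpha subunits. In oxygen the hydroxylated subunit is bound by the VHL ubiquitin ligase and degraded. When oxygen falls the subunit is stable, pairs with ARNT and binds a short core sequence near its target genes. The targets studied here serve different ends of that response: removal of mitochondria (BNIP3, BNIP3L), blood vessel growth and tone (VEGFA, ADM), acid handling (CA9), feedback on HIF itself (EGLN3), hydroxylation of collagen (P4HA1, P4HA2), and stress proteins with less defined tasks (ANKRD37, NDRG1).

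The core that HIF binds was looked for in the 250 bases before the RefSeq start of each gene (GRCh38.p14), as ACGTG or GCGTG on either strand. The RefSeq table matched 7 of the 10 members by symbol. NDRG1, BNIP3L and VEGFA had no entry used here. A match was present in 5 of these 7, and in 43.2% of all 35116 promoters of the same length. It was present in 33 of 40 promoters of other HIF targets outside glycolysis and in 12 of 20 of glycolytic HIF targets. The stretches are shown because they hold every match found in the members, with the matches in capitals, read 5′ to 3′ on the strand of the gene.
ANKRD37: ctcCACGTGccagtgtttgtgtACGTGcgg
BNIP3: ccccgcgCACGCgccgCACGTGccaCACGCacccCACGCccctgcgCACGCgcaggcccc
ADM: agagcaggagcgcGCGTGgctgaggaaaga
P4HA1: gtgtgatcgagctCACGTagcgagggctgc
CA9: ctcgtttccaatgCACGTacagcccgtaca
These lie at chr4:185396676-185396705 on the plus strand (ANKRD37), chr10:131982014-131982073 on the minus strand (BNIP3), chr11:10304959-10304988 on the plus strand (ADM), chr10:73096936-73096965 on the minus strand (P4HA1) and chr9:35673897-35673926 on the plus strand (CA9). ANKRD37 held 3 matches and BNIP3 held 6, while ADM, P4HA1 and CA9 held 1 each and EGLN3 and P4HA2 held 0. In ANKRD37 and BNIP3, 1 pair of matches overlaps on the 2 strands as CACGTG, which is also the E-box that MYC and other factors bind. At least 2 matches, as in ANKRD37 and BNIP3, were present in 19.4% of all promoters, with such a pair counted as 2. At least 4 matches, as in BNIP3 alone of the members, were present in 3.22% of all promoters, and in 459 of the 8503 promoters of tested genes. The BNIP3 stretch lies outside the exons of GENCODE 29, and the other stretches lie within exons of that annotation, whose start sites are not those of RefSeq. A match describes the letters of the window and not a bound site, and 58.3% of the promoters of genes that rose with siMTA1 held one, against 54.8% for genes that fell and 59.2% for all tested genes found in the table.

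Levels are FPKM, fragments per kilobase of gene scaled to the depth of the library, so that genes of different length can be compared. MTA1 itself measured 65.90, 67.61 and 66.74 FPKM in the controls and 44.55, 43.98 and 47.97 FPKM with siMTA1, 68.2% of the control mean (limma adjusted p = 0.000376, and exact two-sided permutation p = 0.1, the smallest that 3 against 3 libraries allow). Low values came in steps of 1 fragment, which put the depth at about 43500000 to 66900000 fragments per library. Of the 10 markers fixed for colon epithelium, 7 reached 1 FPKM in both groups, KRT19 with the highest mean, whereas VIL1, CDX1 and LGALS4 did not, and the 10 summed to 6559 to 6874 FPKM in control and 5661 to 6306 with siMTA1. The 6 fibroblast markers found summed to 1.94 to 2.01 FPKM in control and 2.17 to 2.76 with siMTA1, with DCN and PDGFRA at 0. The 5 leukocyte markers found summed to 0.33 to 0.51 and 0.60 to 0.63 FPKM, and the 6 endothelial markers to at most 0.29 in any library. The part of these marker differences in the results was not tested, and in bulk RNA fewer cells of a kind and less RNA per cell cannot be told apart.

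Most of the 10 targets stood higher with siMTA1, but by very different amounts. The test used the 12141 genes whose mean over the 6 libraries reached 1 FPKM, which kept 9 members, each of them with a mean above 1 FPKM in both groups. Every siMTA1 library was above every control library for 7 of these 9, an arrangement found in 13.2% of tested genes, and for CA9, which was not tested. Of these 9, 6 rose and 0 fell (limma on log2(FPKM + 1), adjusted p under 0.05 over all tested genes), against 6.13% of tested genes that rose and 12.1% that fell. At an unadjusted p under 0.05 the counts were 7 and 0, against 11.5% and 23.5% of tested genes. ANKRD37, NDRG1, ADM, P4HA1, P4HA2 and BNIP3 rose. EGLN3, BNIP3L and VEGFA did not pass, and CA9 was below the level needed for the test. The median log2 fold change of the 9 was 0.40, against −0.05 for all tested genes.

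**Figure D1:**
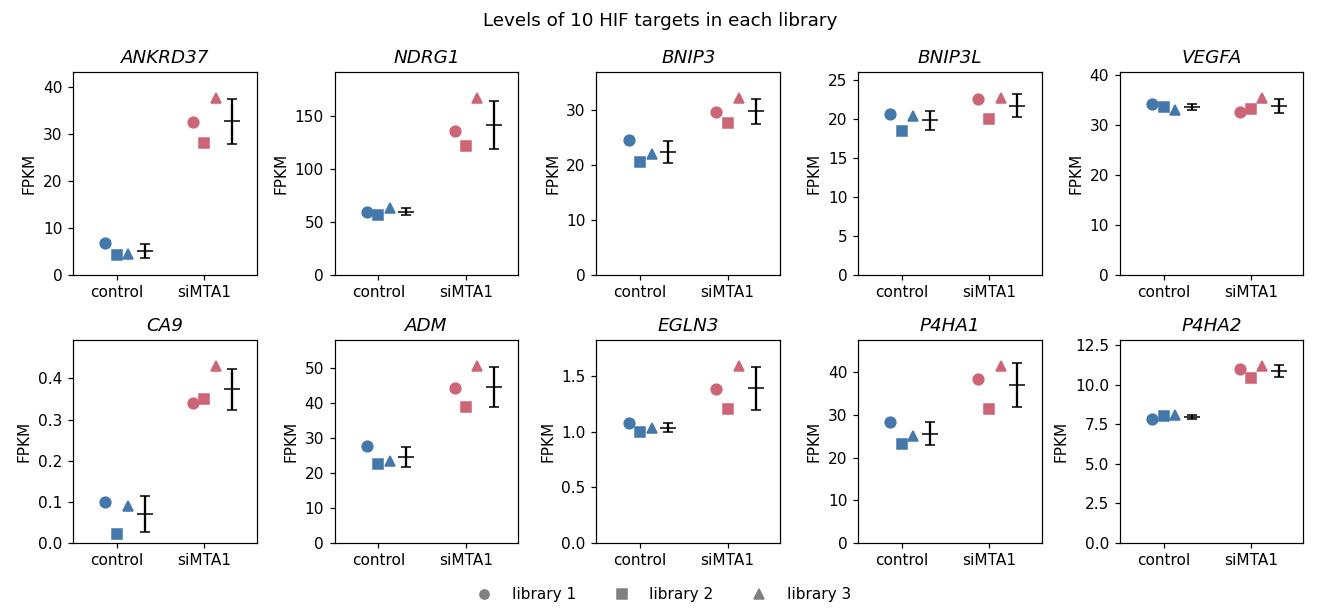
Level of each of the 10 HIF targets in FPKM (vertical axis, linear from 0, a separate scale per gene) in the 3 control (blue) and 3 siMTA1 (red) libraries, with symbol shape giving the library number and the black bar the mean ± SD. The groups are separate in 8 panels and overlap for BNIP3L and VEGFA, and ANKRD37 shows the widest gap, from at most 6.83 to at least 28.04 FPKM.

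ANKRD37, a small ankyrin repeat protein whose task in hypoxia is little defined, was the member that moved most. In control libraries 1, 2 and 3 it reached 6.83, 4.12 and 4.46 FPKM, and in siMTA1 libraries 1, 2 and 3 it reached 32.67, 28.04 and 37.63 FPKM. The lowest siMTA1 library was thus far above the highest control library. The ratio of the means was 6.38, and the log2 fold change of 2.48 (SE 0.15, limma adjusted p = 1.71e-05) was first in size among the rises of all 12141 tested genes. The gene (ENSG00000186352.8) maps to chromosome 4, bases 185396021 to 185400628, plus strand (GRCh38, GENCODE 29), and its exons share 909 bases, 35.2% of their length, with UFSP2 on the opposite strand. The libraries keep strand, per the labels' protocols, but whether the authors counted by strand was not given in the sources used here. UFSP2 was at 11.63, 11.77 and 12.47 FPKM in control and 12.99, 13.34 and 12.63 FPKM with siMTA1, and did not pass (log2 fold change 0.11, adjusted p = 0.191). With array weights UFSP2 passed (log2 fold change 0.13, limma adjusted p = 0.0494, and 0.0494 to 0.393 over its alternatives). In control cells ANKRD37 was eighth in level among the 10 targets, and with siMTA1 its values overlapped those of VEGFA and BNIP3.

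NDRG1, a stress-responsive protein of the α/β-hydrolase fold without known enzyme activity, was the most abundant of the 10 in both groups. Control libraries 1, 2 and 3 held 59.68, 56.85 and 63.17 FPKM, and siMTA1 libraries 1, 2 and 3 held 136.61, 121.88 and 167.22 FPKM. The groups were far apart, and the siMTA1 libraries were more scattered than the control libraries (SD 23.1 against 3.17 FPKM, n = 3 each). The ratio of means was 2.37 and the log2 fold change 1.22 (SE 0.10, adjusted p = 0.000103), ninth among all rises. NDRG1 (ENSG00000104419.14) maps to chromosome 8, bases 133237171 to 133302022, minus strand. Of its 3 relatives, 0 rose and 1 fell (0 and 2 at an unadjusted limma p under 0.05), where 12.1% of all tested genes fell and 23.5% were lower at the unadjusted threshold, so 3 genes say little as a group. NDRG4 fell, from 3.15 ± 0.283 to 2.13 ± 0.137 FPKM (SD, n = 3, log2 fold change −0.41, limma adjusted p = 0.00646), a call lost when genes of all levels were tested (adjusted p = 0.0511, and 0.00166 to 0.0511 over its alternatives). NDRG3 (−0.15, adjusted p = 0.0811) and NDRG2 (0.07, adjusted p = 0.631) did not pass. The difference in response between NDRG1 and its relatives was not tested.

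Among secreted signals, adrenomedullin rose and VEGFA did not. ADM codes for a peptide that widens vessels and is induced by hypoxia in many cells. It stood at 27.74, 22.65 and 23.34 FPKM in control and at 44.44, 39.04 and 50.64 FPKM with siMTA1, without overlap. The ratio of means was 1.82 and the log2 fold change 0.84 (SE 0.10, adjusted p = 0.00106). ADM (ENSG00000148926.9) maps to chromosome 11, bases 10304680 to 10307397, plus strand. The related peptide genes ADM2 (log2 fold change −0.15, adjusted p = 0.216) and ADM5 (−0.18, adjusted p = 0.0956) did not pass. Of the 3 tested genes of this family, 0 rose and 1 fell (0 and 2 at an unadjusted limma p under 0.05), against 12.1% of all tested genes that fell and 23.5% lower at the unadjusted threshold. The one that fell was RAMP1, a receptor partner. RAMP1, which directs the calcitonin-receptor-like receptor mainly to the related peptide CGRP, was at 21.24, 20.25 and 21.23 FPKM in control and 11.86, 12 and 13.13 FPKM with siMTA1 (limma log2 fold change −0.72, SE 0.06, adjusted p = 9.95e-05). That receptor itself, CALCRL, lay between 0.10 and 0.17 FPKM in every library, and RAMP2, its partner for adrenomedullin, at no more than 0.02.

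VEGFA, the chief growth factor for blood vessels and a classic HIF target, did not separate the groups. Control libraries held 34.17, 33.67 and 33.12 FPKM and siMTA1 libraries 32.70, 33.28 and 35.39 FPKM. The siMTA1 libraries included both the lowest and the highest of the 6 values. The log2 fold change was 0.01 (95% interval −0.12 to 0.13, adjusted p = 0.957), so a change as large as that of BNIP3 lies outside the interval. VEGFA (ENSG00000112715.20) maps to chromosome 6, bases 43770184 to 43786487, plus strand. Of 9 other ligands and receptors of the VEGF system, 2 could be tested and neither passed, nor at an unadjusted limma p under 0.05: VEGFB (log2 fold change −0.15, adjusted p = 0.221) and PGF (−0.18, adjusted p = 0.180). Of all tested genes, 6.13% rose and 12.1% fell, and 11.5% and 23.5% at the unadjusted threshold, so 2 genes say little as a group. The receptors FLT1, KDR and FLT4 stayed at or below 0.10 FPKM in all 6 libraries.

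BNIP3 and BNIP3L are outer-membrane proteins of mitochondria that recruit the autophagy machinery, and the pair is a route by which hypoxic cells remove mitochondria. BNIP3 was at 24.57, 20.46 and 22.02 FPKM in control and 29.69, 27.58 and 32.15 FPKM with siMTA1. Its groups were separate, with a ratio of means of 1.33 and a log2 fold change of 0.40 (SE 0.08, limma adjusted p = 0.00946). BNIP3L was at 20.61, 18.40 and 20.30 FPKM in control and 22.46, 19.98 and 22.60 FPKM with siMTA1. These values overlapped, and BNIP3L did not pass (log2 fold change 0.13, 95% interval −0.03 to 0.28, adjusted p = 0.221).

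The ratio of BNIP3 to BNIP3L was 1.08 to 1.19 in the control libraries and 1.32 to 1.42 in the siMTA1 libraries. The groups of this ratio did not overlap, and the exact two-sided permutation test gave p = 0.1, the smallest possible, and 0.2 adjusted over the 2 pairs of related members compared. BNIP3 (ENSG00000176171.11) maps to chromosome 10, bases 131966455 to 131982013, minus strand and BNIP3L (ENSG00000104765.14) to chromosome 8, bases 26382898 to 26505636, plus strand. BNIP3 has processed copies elsewhere in the genome, and the 11 found in the table reached at most 0.43 FPKM. Other mitophagy receptors and the ATG8 proteins they bind showed 0 higher and 0 lower of 14 tested, against 6.13% and 12.1% of all tested genes. At an unadjusted limma p under 0.05 the counts were 1 higher and 5 lower, against 11.5% and 23.5%. The call of BNIP3 was lost when genes of all levels were tested (adjusted p = 0.0743, and 0.000598 to 0.0743 over its alternatives), and BNIP3L passed with array weights (adjusted p = 0.0252, and 0.0252 to 0.549).

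The alpha subunits of collagen prolyl 4-hydroxylase, which make the hydroxyproline that stabilises the collagen triple helix, both rose. P4HA1 was at 28.44, 23.21 and 25.17 FPKM in control and 38.40, 31.40 and 41.47 FPKM with siMTA1, a ratio of means of 1.45 (log2 fold change 0.51, SE 0.10, limma adjusted p = 0.0105). P4HA2 was at 7.81, 7.99 and 8.08 FPKM in control and 10.98, 10.42 and 11.17 FPKM with siMTA1, a ratio of means of 1.36 (0.40, SE 0.06, adjusted p = 0.00207). In both genes the groups were separate, and P4HA2 had the tighter replicates. The ratio of P4HA1 to P4HA2 was 3.22 ± 0.379 in control and 3.41 ± 0.358 with siMTA1 (SD, n = 3), which did not differ beyond its spread (exact permutation p = 0.7, and 0.7 adjusted over the 2 pairs). The call of P4HA1 was lost when genes of all levels were tested (adjusted p = 0.0948, and 0.000720 to 0.0948 over its alternatives). P4HA1 (ENSG00000122884.12) maps to chromosome 10, bases 73007217 to 73096974, and P4HA2 (ENSG00000072682.18) to chromosome 5, bases 132191838 to 132295315, both on the minus strand.

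Their partners in collagen folding moved in part. Of 10 tested genes of collagen hydroxylation and folding, 3 rose and 0 fell, against 6.13% and 12.1% of all tested genes, and the median log2 fold change was 0.16. At an unadjusted limma p under 0.05 the counts were 5 and 1, against 11.5% and 23.5%. P4HB, the beta subunit that holds the alpha subunits in solution and is also protein disulphide isomerase, was at 331.41, 350.32 and 357.30 FPKM in control and 417.89, 430.92 and 442.11 FPKM with siMTA1 (log2 fold change 0.31, adjusted p = 0.00643). The lysyl hydroxylase gene PLOD1 had a log2 fold change of 0.50 (adjusted p = 0.00302) and the proline isomerase gene PPIB of 0.27 (adjusted p = 0.0190). PLOD1 is also counted among the other HIF targets below. The PPIB call ended with no filter (adjusted p = 0.109), without control library 2 (0.0601), and without siMTA1 library 2 (0.0733) or 3 (0.0538), with 0.00553 to 0.109 over its alternatives.

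EGLN3, a prolyl hydroxylase that marks HIF alpha for degradation and is itself induced by HIF, was low. It stood at 1.08, 1 and 1.03 FPKM in control and 1.38, 1.20 and 1.59 FPKM with siMTA1. The groups did not overlap, but the change missed the threshold (ratio of means 1.34, log2 fold change 0.23, SE 0.08, limma adjusted p = 0.0702). Because 1 is added before the logarithm, a fold change is understated at such a level, and it was 0.38 with 0.1 added. EGLN3 passed under median centring (adjusted p = 0.0340) and with array weights (0.0174), with 0.0174 to 0.244 over its alternatives. The gene (ENSG00000129521.13) maps to chromosome 14, bases 33924231 to 34462774, minus strand. Its relatives EGLN1, the main oxygen sensor (log2 fold change −0.01, limma adjusted p = 0.893), and P4HTM (−0.15, adjusted p = 0.140) did not pass. At an unadjusted limma p under 0.05 the counts were 0 higher and 1 lower of these 2. Of all tested genes, 11.5% were higher and 23.5% lower at that threshold, so 2 genes say little as a group.

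CA9, a carbonic anhydrase of the cell surface used as a tissue marker of hypoxia, was close to absent. It was listed at 0.10, 0.02 and 0.09 FPKM in control and at 0.34, 0.35 and 0.43 FPKM with siMTA1. All siMTA1 values were above all control values, and the ratio of means was 5.33. At the implied depths these values stand for about 7.26, 1.89 and 9.84 fragments in control libraries 1, 2 and 3 and 32.6, 39.1 and 43.9 fragments in siMTA1 libraries 1, 2 and 3. CA9 was not tested at the main filter. With no filter on low values its log2 fold change was 0.36 (limma adjusted p = 0.0268). Where a mean of 0.1 FPKM was required the adjusted p was 0.0153, but the control mean of CA9, 0.07 FPKM, is under that level, so it entered only through the siMTA1 libraries and the value supports nothing. CA9 (ENSG00000107159.12) maps to chromosome 9, bases 35673856 to 35681159, plus strand and shares 643 exon bases, 38.5% of its exon length, with ARHGEF39 on the opposite strand. ARHGEF39 stood at 1.32, 1.29 and 1.51 FPKM in control and 1.70, 1.66 and 1.6 FPKM with siMTA1 (log2 fold change 0.16, adjusted p = 0.125), and its part in the CA9 values was not tested. With array weights ARHGEF39 passed (log2 fold change 0.20, limma adjusted p = 0.0218, and 0.0218 to 0.308 over its alternatives). Of 11 other carbonic anhydrases, CA2 alone was tested and did not pass (log2 fold change −0.10, adjusted p = 0.325).

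**Figure D2:**
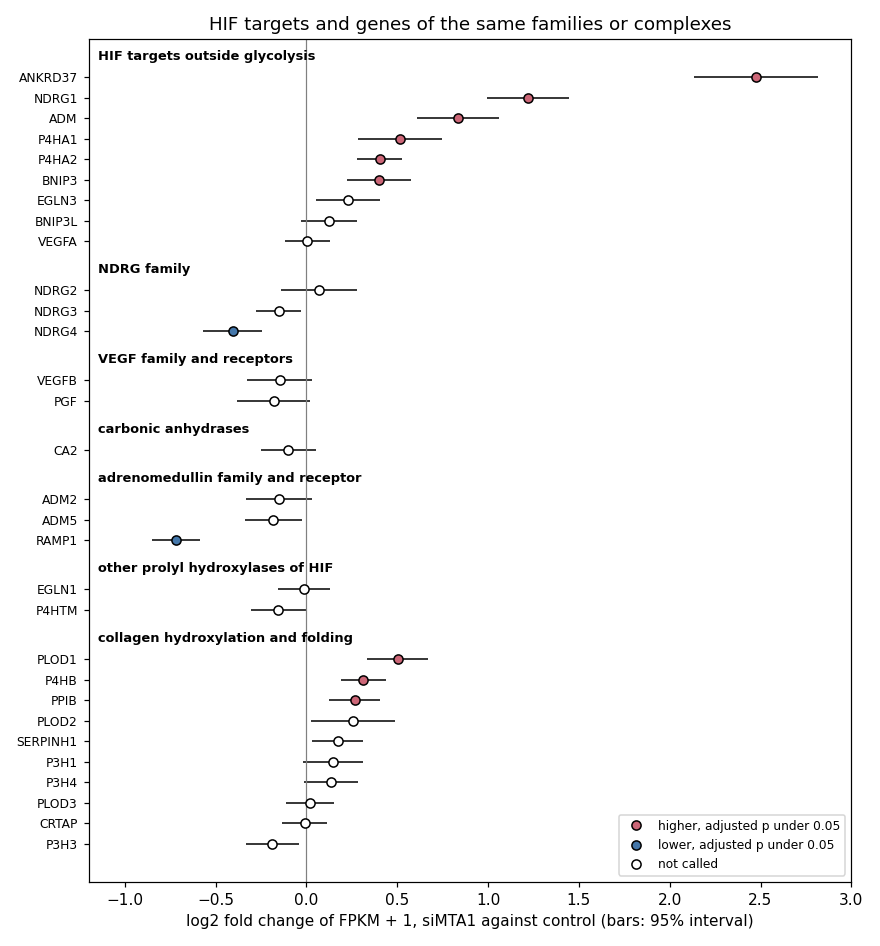
Log2 fold change of FPKM + 1, siMTA1 against control (horizontal axis), for the 9 tested HIF targets and the tested genes of related families or complexes, with 95% intervals as bars and fill giving the call. The HIF targets spread from 0.01 for VEGFA to 2.48 for ANKRD37, and the collagen genes are the family block with rises.

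The order of the 10 levels changed between the groups. In control cells NDRG1 and VEGFA led, P4HA1, ADM, BNIP3 and BNIP3L followed with overlapping neighbours, and P4HA2, ANKRD37, EGLN3 and CA9 were each separate from the next. With siMTA1, NDRG1 again led, and ADM, P4HA1, VEGFA, ANKRD37 and BNIP3 formed a run in which each neighbour overlapped the next. BNIP3L, P4HA2, EGLN3 and CA9 were below this run, each separate from its neighbours.

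The members also had in common which library of a group stood high, and among the siMTA1 libraries many other HIF targets had the same library at the top. In siMTA1 library 3, all 10 members were at the highest of their 3 siMTA1 values, as were 29 of 39 other HIF targets, 18 of 20 glycolytic HIF targets and 39.9% of all tested genes. In siMTA1 library 2, 8 of 10 were at their lowest, as were 25 of 39 other HIF targets, 12 of 20 glycolytic HIF targets and 37.8% of tested genes. The exceptions, VEGFA and CA9, were lowest in siMTA1 library 1. Among the control libraries, library 1 held the highest value of 8 members (38.6% of tested genes) and library 2 the lowest value of 8 (28.7%). Control library 1 was highest for 19 of 39 other HIF targets but for only 5 of 20 glycolytic HIF targets. Of the glycolytic HIF targets, 13 of 20 were highest in control library 3, as were 39.9% of tested genes. Control library 2 was lowest for 16 of 39 and 10 of 20. Over the 9 tested members the median level in siMTA1 library 3 was 112% of the siMTA1 mean of the gene, and in library 2 it was 87.3%. The median coefficient of variation of these 9 was 13% in siMTA1 and 6.05% in control, where all tested genes had medians of 6.18% and 6.44%. This is a description of 10 genes in the same 6 libraries, and what sets the libraries apart was not tested. Without siMTA1 library 3 the number of members that rose was again 6, and the log2 fold change was 2.38 for ANKRD37, 1.10 for NDRG1 and 0.74 for ADM.

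**Figure D3:**
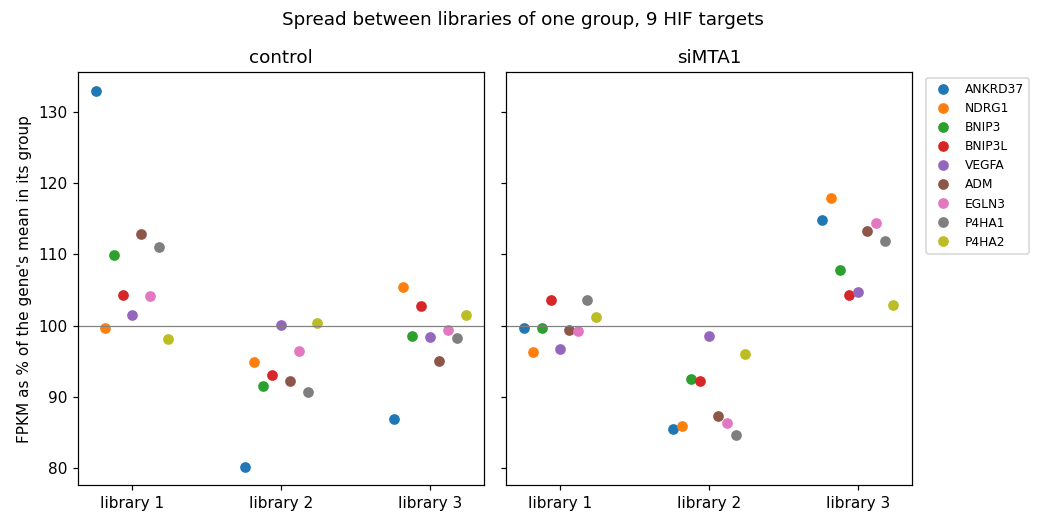
Level of 9 HIF targets in each library as a percentage of the mean of the gene in its own group (vertical axis), for control libraries (left) and siMTA1 libraries (right), 1 colour per gene, with CA9 left out because its values rest on few fragments. In siMTA1 library 3 all 9 points lie above 100%, and in siMTA1 library 2 all 9 lie below it.

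Genes whose pattern over the 6 libraries was most like the members were sought among 7079 other genes whose mean reached 5 FPKM, by Pearson's r with the median standardised level of the 9 tested members. The 5 highest were HK2 (hexokinase, the entry step of glycolysis, r = 0.995), FAM110C (r = 0.994), the epithelial transcription factor gene KLF5 (r = 0.993), ERMP1 (r = 0.993) and the kinase gene HIPK2 (r = 0.992). These r values rest on 6 libraries in 2 groups, and 1.44% of the genes compared exceeded 0.95. HK2 stood at 11.04, 10.13 and 10.74 FPKM in control and 14.14, 13.06 and 15.87 FPKM with siMTA1 (log2 fold change 0.40, limma adjusted p = 0.00768, and 0.0589 with no filter, its highest over 18 alternatives, the lowest being 0.000680). Among the members themselves, r with the same profile, to which each contributes, ran from 0.29 for VEGFA and 0.85 for BNIP3L to 0.997 for ADM.

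Other HIF targets outside glycolysis, from a list of 50 of which 39 could be tested, rose more often than they fell, with 13 higher and 3 lower. These are 33.3% higher, against 6.13% of all tested genes that rose and 12.1% that fell. This list, like the members and the other lists, was chosen with earlier results of these data known, so the excess is no independent support. At an unadjusted limma p under 0.05 the counts were 17 higher and 4 lower, against 11.5% and 23.5% of tested genes. The median log2 fold change was 0.13. The 4 with the smallest adjusted p rose. ANGPTL4, an inhibitor of lipoprotein lipase, was at 6.46, 5.01 and 6.11 FPKM in control and 25.70, 22.77 and 30.72 FPKM with siMTA1. HILPDA, a lipid droplet protein, was at 7.58, 7.39 and 6.96 FPKM in control and 13.85, 12.29 and 16.07 FPKM with siMTA1. KDM3A, a histone demethylase, was at 12.21, 11.47 and 11.87 FPKM in control and 18.47, 16.92 and 21.08 FPKM with siMTA1. In each of these 3 genes siMTA1 library 3 was the highest and siMTA1 library 2 the lowest of its group, as in 8 of the 10 members. IGFBP3, which binds insulin-like growth factors, had a log2 fold change of 1.19 (adjusted p = 0.00201), but its control mean was 0.91 FPKM. It reached the filter only through the siMTA1 libraries, so this p-value supports nothing. The count of 13 higher includes it. The 3 that fell, named after their values were seen, were the ephrin gene EFNA1 (−0.39, adjusted p = 0.00626), HIGD1A of the mitochondrial inner membrane (−0.46, adjusted p = 0.0169) and the receptor gene MET (−0.21, adjusted p = 0.0439). The MET call ended under 13 of 18 alternatives (adjusted p of 0.0207 to 0.148 over all of them), among them each library left out in turn, and the HIGD1A call with no filter (adjusted p = 0.121, and 0.00358 to 0.121 over its alternatives). With no filter on low values the counts of the list were 8 higher and 1 lower of 47, against 297 and 379 of all 33126 genes tested at that setting.

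**Figure D4:**
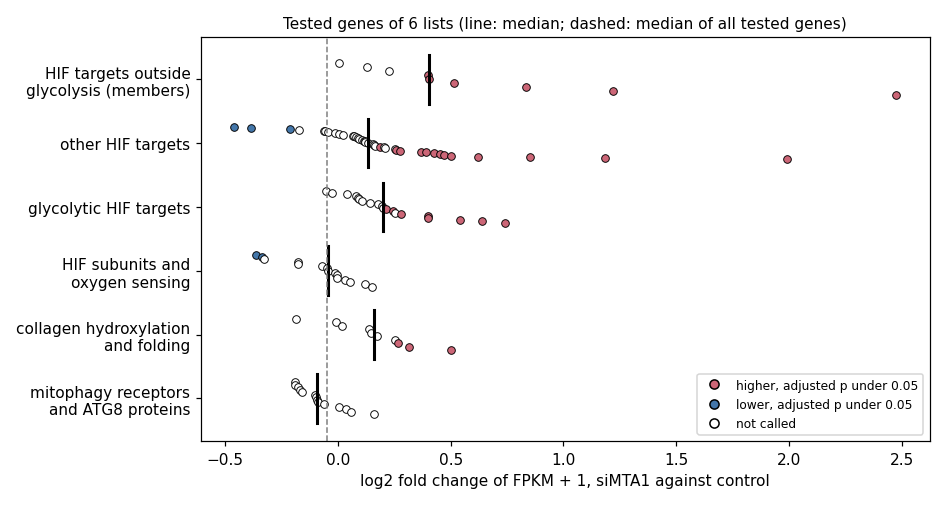
Log2 fold change of FPKM + 1, siMTA1 against control (horizontal axis), for the tested genes of 6 lists (rows), with fill giving the call, a black line at the median of each list and a dashed line at the median of all tested genes, −0.05. The 9 HIF targets outside glycolysis have a median of 0.40, the other HIF targets of 0.13 and the glycolytic HIF targets of 0.20.

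Where HIF targets meet glycolysis, 8 of 20 tested enzymes, transporters and regulators rose and 0 fell, against 6.13% and 12.1% of all tested genes, and 13 and 0 passed at an unadjusted limma p under 0.05, against 11.5% and 23.5%. The 3 with the smallest adjusted p were ENO2 (log2 fold change 0.64), PFKFB4 (0.74) and HK2 (0.40). Without control library 2 the count that rose was 5 of 20. At that setting 391 of all 12136 tested genes rose, against 744 of 12141 with all libraries. Of 15 tested subunits and regulators of the HIF system 0 were higher and 2 lower, with 1 and 5 at an unadjusted limma p under 0.05. These counts are near those of all tested genes, of which 6.13% were higher and 12.1% lower, and 11.5% and 23.5% at the unadjusted threshold. HIF1A, the oxygen-regulated alpha subunit, was at 33.11, 32.04 and 32.99 FPKM in control and 28.61, 25.33 and 23.42 FPKM with siMTA1 (log2 fold change −0.34, adjusted p = 0.0135), an arrangement with every siMTA1 library below every control library that 25.9% of tested genes shared. RBX1, of the VHL ligase, was the other (−0.37, adjusted p = 0.0168). Without siMTA1 library 2 the 2 calls ended (adjusted p = 0.0522 for HIF1A and 0.0664 for RBX1), as they did with no filter (0.0815 and 0.102), over ranges of 0.00435 to 0.0815 and 0.00292 to 0.102.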

How the data were processed

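The authors deposited 1 table of FPKM per gene for 6 libraries, printed to 2 decimals. The submitters' processing notes name cutadapt, TopHat2, edgeR and GRCh38, without versions or roles. Counting, use of strand, annotation and gene lengths were not given in the sources used here. Columns were assigned to samples by name. Genes averaging at least 1 FPKM (12141 of 36651) entered a two-sided limma test (limma 3.58.1, R 4.3.3) of log2(FPKM + 1) with an intensity trend and no covariates, and p-values were adjusted by Benjamini and Hochberg over all tested genes (called under 0.05). The function was tested on simulated data. Depth was inferred from the steps of low FPKM in genes under 150 bases, taking 1 step (tolerance 0.04) as 1 fragment and GENCODE 29 lengths. The members and the 10 gene lists (148 of 150 entries found) were chosen with earlier results of these data known. Some genes are in several lists, among them PLOD1, PLOD2, EGLN1 and CITED2, so the counts of the lists are not independent. Named genes are the members, MTA1, family members above the filter, up to 3 called genes per list (4 for other HIF targets) and the 5 most similar genes. In all, 18 alternatives were run. Summaries used Python 3.11.15 and pandas 2.3.3.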

Additional observations from a re-analysis of the deposited data

How the results depend on the processing

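The count of members that rose was 5 to 8 over the 18 alternatives and 6 with each library left out, and 0 fell in any. The lowest, 5 of 10, came with no filter, where CA9 entered and the calls of BNIP3 and P4HA1 ended. At that setting 297 of all 33126 genes rose. The highest, 8 of 9, came with array weights, where 1434 of 12141 genes rose. The 7 of 10 where a mean of 0.1 FPKM was required also included CA9. The log2 fold changes of ANKRD37 (2.36 to 2.68), NDRG1 (1.10 to 1.32), ADM (0.74 to 0.93) and P4HA2 (0.38 to 0.46) passed in all 18. VEGFA, which did not pass under any, turned sign with array weights (−0.0036) and within leave-one-out values of −0.028 to 0.028, without control library 3 (−0.0061) or siMTA1 library 3. EGLN1 turned under quantile normalization (0.044), upper-quartile scaling (0.040) and median centring (0.040) and within leave-one-out values of −0.039 to 0.029, and NDRG2 without siMTA1 library 3 (−0.0020, range to 0.15).

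Over all genes, 744 rose and 1463 fell, 33.7% of calls higher. Scaling moved that balance: median centring gave 1128 and 802 (58.4% higher), upper-quartile scaling 1057 and 784 (57.4%), and quantile normalization 1011 and 895 (53.0%). No filter gave 297 and 379 (43.9%), and array weights 1434 and 2615. Leaving out 1 library gave 391 to 633 higher and 642 to 1191 lower, lowest without control library 2 (391 and 655) and siMTA1 library 2 (424 and 642).

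Counts in lists moved as follows. With no filter, other HIF targets were 8 higher and 1 lower, glycolytic targets 4 higher, and the HIF system and the NDRG family 0 lower. The NDRG family also had 0 lower where a mean of 5 FPKM was required, which NDRG4 does not reach, and carbonic anhydrases 1 higher where 0.1 FPKM was required. With array weights, glycolytic targets were 13 higher, the HIF system 1 higher and 4 lower, mitophagy genes 4 lower, adrenomedullin genes 2 lower, the other prolyl hydroxylases 1 lower, and collagen genes 6 higher and 1 lower. Leaving out 1 library gave 5 to 10 higher for glycolytic targets, 0 to 3 lower for the HIF system (0 without siMTA1 library 2), 0 to 1 lower for mitophagy genes and 0 to 1 lower for collagen genes.

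Same-numbered control and siMTA1 libraries deviated from their group means with r of 0.33, 0.02 and 0.22 over 12141 genes. Libraries of unlike number gave r from −0.28 to 0.07, the highest for control library 2 with siMTA1 library 3. Whether libraries of the same number were handled together was not tested. With the replicate block, 992 genes rose and 2039 fell, the HIF system was 4 lower, mitophagy genes 1 lower and collagen genes 5 higher and 1 lower, and 6 members rose. The cause of each change was not tested. Fewer libraries enter the fit where 1 is left out, and more genes enter it with no filter (33126 against 12141). FPKM hold no depth of their own, and the implied depths limit CA9.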

Other observations

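Some HIF targets below the level needed for the test were separate between the groups. Those given with values here were named after their values were seen and were not tested. Among tested genes, 13.2% had every siMTA1 library above every control library and 25.9% had every siMTA1 library below. That share was not taken for genes below the level. TF, STC1 and CXCR4 were also separate, with siMTA1 higher, whereas EPO, FLT1, ENG, PPP1R3C and VLDLR were not separate. CA12, a carbonic anhydrase of the cell surface like CA9, was at 0.54, 0.59 and 0.60 FPKM in control and 0.98, 0.97 and 1.08 FPKM with siMTA1. SLC2A3, a glucose transporter of high affinity, was at 0.17, 0.09 and 0.10 FPKM in control and 0.70, 0.74 and 0.93 FPKM with siMTA1. Its relative SLC2A1, the glucose transporter most often used as a HIF readout, did not pass the test at 24.78, 23.60 and 28.06 FPKM in control and 24.52, 22.83 and 26.15 FPKM with siMTA1 (limma adjusted p = 0.652). The endothelin gene EDN1 stood in the other order, at 0.81, 1.20 and 1.09 FPKM in control and 0.65, 0.73 and 0.56 FPKM with siMTA1.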
